A study of Homo sapiens with 44 samples.

Results

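RNA of HCT116 cells edited to lose GAS41 (GAS41-KO) was compared with RNA of unedited HCT116 cells (WT), gene by gene. HCT116 is a human colon carcinoma line of epithelial type. The comparison took in every gene of the deposited table, 18797 in all, of which 14505 had enough reads to be tested (at least 10 reads in at least 3 of the 12 libraries of the table). Each group had 3 libraries. Knockout cells stably expressing GFP-Flag-tagged GAS41 with the changes Y74A and W93A (mut rescue) and knockout cells stably expressing GFP-Flag-tagged normal GAS41 (wt rescue), also with 3 libraries each, were sequenced with them. Their values are given beside those of GAS41-KO and WT where they add to a gene's description, and all 3 edited groups share the knockout background. A separate experiment had 3 libraries of cells given 500 nM doxorubicin and 3 of cells given DMSO. The labels do not say how many knockout clones were used, how the gene was edited, or whether the 3 biological replicates of a group were separate cultures, and without separate cultures the p-values describe sampling within 1 culture.

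GAS41, encoded by YEATS4, is a small nuclear protein whose YEATS domain binds acylated lysines of histone H3. It is a subunit of the SRCAP and TIP60 complexes, chromatin remodelling and acetylation machines that place or modify the histone variant H2A.Z at promoters and enhancers. In epithelial cells of the gut, identity depends on transcription factors such as GRHL2 that keep genes of cell junctions and apical transport active, while factors such as ZEB1 repress them. The interferon response is a second programme that is quiet in most growing cells, and it is switched on when sensors of foreign nucleic acid or secreted interferon activate the STAT and IRF transcription factors.

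Sequencing depth was 16857982 to 17077635 reads in the GAS41-KO libraries and 17851483 to 17926812 in the WT libraries. Levels are given as normalized reads, which are reads divided by the size factor of the library, and folds are ratios of group means. Libraries of a group lay close together. For genes with at least 100 normalized reads the median SD over the mean was 4.0% in GAS41-KO and 4.05% in WT. A gene was called when the adjusted p of limma, fitted on the deposited log2 values of all 12 libraries, was under 0.05. By that rule 7624 genes (52.6%) were called, 3772 (26.0%) higher and 3852 (26.6%) lower in GAS41-KO, so that a call alone did not set a gene apart. A call with a fold of at least 2 was met by 1446 genes (9.97%), of which 947 (6.53%) were higher and 499 (3.44%) lower, and below this is called a strong rise or a strong fall. The counts of each list below stand against these shares of all tested genes. The groups did not overlap in 10013 genes (69.0%). Among strong changes they did not overlap in 939 of the 947 rises and 496 of the 499 falls. Genes ranked by fold were required to have groups that did not overlap. A lack of overlap therefore does not set a named gene apart. Markers of colon carcinoma epithelium summed to 63428 to 65291 normalized reads per library in GAS41-KO and to 56788 to 60420 in WT. Most of that sum came from KRT8 and KRT18, which averaged 36697 and 16706 in GAS41-KO, against 26988 and 12799 in WT. EPCAM and CDH1 of that list fell, to 915 and 138 in GAS41-KO, against 7503 and 1419 in WT. Fibroblast markers summed to 240.2 to 310.8 in GAS41-KO and 270.2 to 307.9 in WT. Blood and immune markers summed to 234.6 to 258.4 in GAS41-KO and 211.6 to 234.8 in WT, and endothelial markers to 24.02 to 34.6 in GAS41-KO and 18.9 to 23.9 in WT. The leukocyte gene PTPRC had 5 reads over the GAS41-KO libraries and 0 over the WT libraries, and the endothelial gene CDH5 had 3 in GAS41-KO and 0 in WT. Single markers of these lists moved apart from the sums. The fibroblast collagen gene COL3A1 had 56 reads over the GAS41-KO libraries and 2 over the WT libraries (adjusted p = 1.43e-05), while COL1A1, which made up most of the fibroblast sum, was not called, with 242 ± 31.2 in GAS41-KO and 285 ± 19.6 in WT (adjusted p = 0.0936), and was called lower without GAS41-KO replicate 2 (adjusted p = 0.0322). Of the blood list LYZ rose to 45.8 ± 7.67 in GAS41-KO, against 19.6 ± 4.32 in WT, CD4 rose to 13.9 ± 1.75 in GAS41-KO, against 6.64 ± 0.914 in WT, and CD8A fell to 4.98 ± 0.974 in GAS41-KO, against 12.98 ± 2.81 in WT. The part of such cells in the mesenchymal and immune rises given below was not tested. In RNA of whole cultures, fewer cells of a kind and less RNA per cell cannot be told apart.

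The targeted gene, YEATS4, was reduced and not absent at the RNA level. It had 386, 337 and 325 normalized reads in the GAS41-KO libraries, against 625, 608 and 621 in the WT libraries (1.77-fold lower, log2 change -0.64 ± 0.07 SE on the deposited scale, adjusted p = 2.09e-06). All 3 GAS41-KO libraries lay below all 3 WT libraries. Gene totals do not show whether the remaining RNA can be translated. In the lines with a tagged copy the count includes the transgene if the reads fall in its coding part, and YEATS4 had 2551, 2358 and 2538 normalized reads in mut rescue and 2887, 3499.5 and 3372 in wt rescue. Of the other human genes with a YEATS domain 2 rose, by less than 2-fold, and 1 was not called. MLLT3, whose protein AF9 recruits elongation factors, rose to 229.7 ± 11.7 in GAS41-KO, against 150.0 ± 13.8 in WT (adjusted p = 2.48e-04). YEATS2, a subunit of the ATAC acetyltransferase complex, rose to 1888 ± 11.8 in GAS41-KO, against 1630.2 ± 19.3 in WT (adjusted p = 0.01). MLLT1, which encodes ENL, was not called (1434 ± 42.1 in GAS41-KO and 1591 ± 131 in WT, adjusted p = 0.156).

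Partners of GAS41 in its complexes moved by less than 2-fold. Among 23 tested genes for TIP60 and SRCAP subunits and H2A.Z, 4 rose, 7 fell and 12 were not called, with no strong change in either direction (median log2 fold -0.09, against -0.02 for all tested genes). Of all tested genes 26.0% rose and 26.6% fell. The acetyltransferase KAT5 fell to 387 ± 28.7 normalized reads in GAS41-KO, against 547 ± 28.4 in WT (adjusted p = 4.07e-04). H2AFZ, the main H2A.Z gene, fell to 10131 ± 289.9 in GAS41-KO, against 13424 ± 188 in WT (adjusted p = 1.44e-04). EPC1, a scaffold subunit of TIP60, rose to 565 ± 29.2 in GAS41-KO, against 416 ± 14.7 in WT (adjusted p = 1.57e-04). The remodelling ATPase SRCAP was not called, with 3678 ± 210.0 in GAS41-KO and 3319 ± 85.5 in WT (adjusted p = 0.0779), and was called higher without GAS41-KO replicate 1 (adjusted p = 0.0435).

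**Figure D1:**
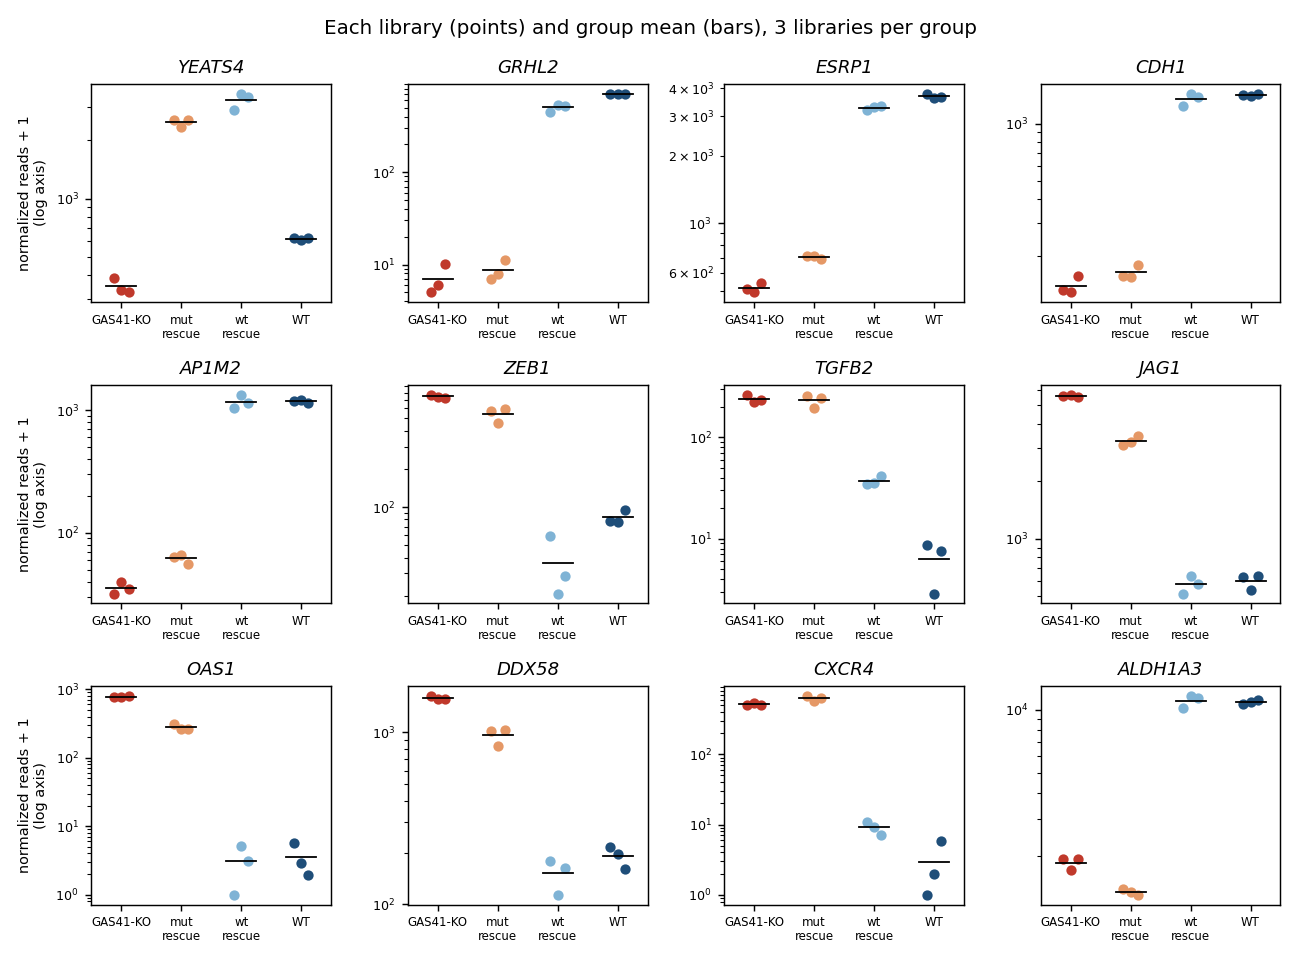
Normalized reads plus 1 (log axis, with its own range in each panel) of 12 genes in each library of GAS41-KO, mut rescue, wt rescue and WT. Points are libraries and bars are group means of 3 libraries. In every panel the GAS41-KO points and the WT points form separate groups. In the panels other than YEATS4 and TGFB2 the mut rescue points lie nearer to GAS41-KO and the wt rescue points nearer to WT.

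Large changes were more often upward. Of the called genes, 264 were at least 4-fold higher and 127 at least 4-fold lower in GAS41-KO, and 99 were at least 8-fold higher and 51 at least 8-fold lower. The median fold of called genes was 1.52 among the rises and 1.402 among the falls. The chemokine receptor gene CXCR4, which guides cell migration along CXCL12 gradients, had 499, 536 and 504 normalized reads in GAS41-KO, against 0, 0.944 and 4.74 in WT (adjusted p = 4.12e-14). ELMO1, which helps activate the small GTPase RAC1 in moving and engulfing cells, had 294, 299.9 and 335 in GAS41-KO, against 0, 1.89 and 3.79 in WT (adjusted p = 8.89e-13). HAS2, a hyaluronan synthase, had 281, 298 and 257 in GAS41-KO, against 2.86, 3.78 and 5.69 in WT (adjusted p = 1.94e-13). These 3 genes were thus near the limit of detection in unedited cells and well above it in each knockout library. The ranking by fold also held genes with known roles in neurons. SNAP25, of the synaptic fusion machinery, averaged 255 ± 20.9 in GAS41-KO and 3.16 ± 0.547 in WT. The glutamate receptor gene GRIK2 averaged 98.6 ± 11.1 in GAS41-KO and 2.21 ± 0.537 in WT, and the dopamine receptor gene DRD1 averaged 87.02 ± 7.76 in GAS41-KO and 2.21 ± 0.547 in WT. PRF1, which encodes the pore protein perforin of cytotoxic lymphocytes, averaged 902 ± 35.9 in GAS41-KO and 36.1 ± 7.98 in WT.

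**Figure D2:**
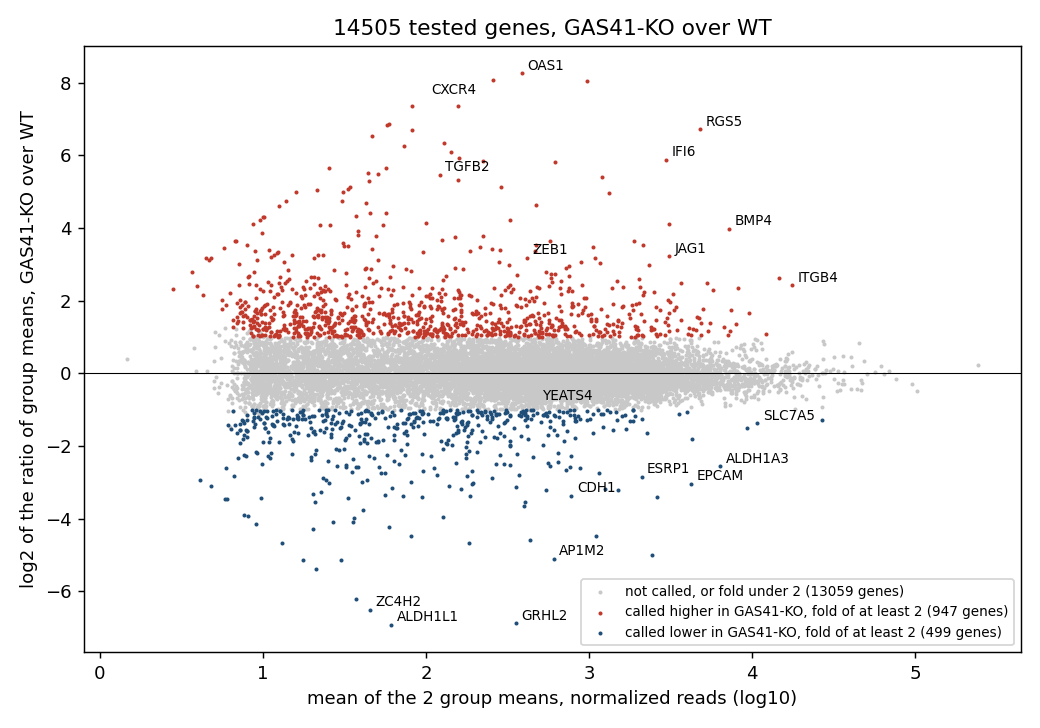
Log2 of the ratio of group means of normalized reads, GAS41-KO over WT (vertical axis), against the log10 of the mean of both group means (horizontal axis), 1 point per tested gene. Group means under 1 normalized read are set to 1. Red points are the 947 strong rises and blue points the 499 strong falls, and the red points reach farther from the line at 0 than the blue ones.

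Some genes had almost no reads in 1 of the groups. Among genes with at most 3 reads over the 3 libraries of 1 group and at least 1 CPM (reads scaled to a common library total) in the other group, 7 were silent in GAS41-KO and 12 were silent in WT. At 5 CPM or more, 2 were silent in GAS41-KO and 4 in WT. STC1, a secreted glycoprotein hormone gene, had 495 reads over the GAS41-KO libraries and 2 over the WT libraries. AOAH, whose enzyme deacylates lipopolysaccharide, had 354 in GAS41-KO and 1 in WT. UNC5C, a receptor for the guidance molecule netrin, had 280 in GAS41-KO and 1 in WT, and FSTL5, a follistatin-like gene, had 347 in GAS41-KO and 1 in WT. ALDH1L1, an enzyme of folate metabolism, and ZC4H2, a zinc finger gene, were the 2 silent in GAS41-KO at that minimum. ALDH1L1 had 3 reads over the GAS41-KO libraries and 382 over the WT libraries. ZC4H2 had 0 reads in GAS41-KO and 288 in WT, which makes it at least 91.1-fold lower in GAS41-KO when the knockout is set to the floor of 3 reads over the group. The rescue lines differed between these genes, since ALDH1L1 had 4 reads in mut rescue and 36 in wt rescue, whereas ZC4H2 had 0 reads in both.

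Epithelial transcription and splicing factors mostly fell. Of 21 tested genes on that list, 14 fell and 3 rose, with 8 strong falls and 1 strong rise, and the median log2 fold was -0.61 (all tested genes -0.02). GRHL2, a grainyhead factor that binds enhancers of junction genes, had 3.99, 4.95 and 9.01 normalized reads in GAS41-KO, against 710.3, 704 and 701 in WT (118-fold lower, adjusted p = 3.06e-15). ESRP1, which directs epithelial splicing, had 509, 490.0 and 542 in GAS41-KO, against 3778, 3622 and 3642 in WT (7.17-fold lower, adjusted p = 3.65e-15). OVOL1, a repressor of mesenchymal genes, had 25.9, 26.7 and 24.02 in GAS41-KO, against 144, 185 and 167 in WT (6.47-fold lower, adjusted p = 2.28e-10). No knockout library of these 3 genes reached the lowest WT library, which the ranking by fold required. ELF3, an ETS factor of gut epithelium, fell to 299 ± 13.2 in GAS41-KO, against 965 ± 21.7 in WT. EHF and ESRP2, relatives of ELF3 and ESRP1, fell by less than 2-fold (EHF 1456 ± 45.2 in GAS41-KO and 2775 ± 151 in WT, ESRP2 647 ± 9.31 in GAS41-KO and 948 ± 28.9 in WT). The intestinal master regulator CDX2 was not called, with 215 ± 19.8 in GAS41-KO and 235 ± 22 in WT (adjusted p = 0.426). KLF5, a factor of proliferating crypt cells, rose to 1414 ± 101 in GAS41-KO, against 826 ± 32.1 in WT. FOXA2, a pioneer factor of endoderm, was the strong rise, with 74 reads over the GAS41-KO libraries and 2 over the WT libraries.

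Junction genes moved in both directions. On the tight junction and polarity list 12 of 26 tested genes fell and 5 rose, with 7 strong falls and no strong rise (median log2 fold -0.20). The claudin gene CLDN7 had 252, 253 and 243 normalized reads in GAS41-KO, against 2217, 2326 and 2213 in WT (9.02-fold lower, adjusted p = 1.63e-14). The tight junction gene MARVELD3 averaged 98.9 ± 10.8 in GAS41-KO and 470.4 ± 43.3 in WT, and the polarity gene CRB3 58.8 ± 3.63 in GAS41-KO and 229 ± 13.1 in WT. The scaffold gene TJP1 (ZO-1) was not called, with 2952 ± 50.5 in GAS41-KO and 2747 ± 118 in WT (adjusted p = 0.218). Among 21 adherens junction and desmosome genes 10 fell and 7 rose, with 5 strong falls and 1 strong rise (median log2 fold -0.02). The 5 strong falls were cadherins and a plakophilin. DSC3, a desmosomal cadherin gene, had 12.97, 10.9 and 18.02 in GAS41-KO, against 394, 331 and 336 in WT (25.3-fold lower, adjusted p = 5.81e-12). CDH1, which encodes E-cadherin, had 131, 128 and 155 in GAS41-KO, against 1418, 1402 and 1436 in WT (10.3-fold lower, adjusted p = 3.05e-14). DSC2 averaged 168 ± 6.86 in GAS41-KO and 977 ± 23.9 in WT, PKP3 averaged 196 ± 10.8 in GAS41-KO and 1248 ± 105 in WT, and CDH3 (P-cadherin) averaged 1239 ± 36.9 in GAS41-KO and 2488 ± 82.96 in WT. Cytoplasmic linker genes of the same junctions moved in both directions, and some were not called. The plakophilin gene PKP3 is such a linker and fell, whereas DSP, JUP and CTNNB1 were among the rises. DSP, which encodes desmoplakin, rose to 8475 ± 228 in GAS41-KO, against 7037 ± 231 in WT (adjusted p = 0.00118), JUP, which encodes plakoglobin, rose to 4954 ± 109 in GAS41-KO, against 3828 ± 155 in WT (adjusted p = 0.00123), and CTNNB1, which encodes beta-catenin, rose to 9559 ± 279.5 in GAS41-KO, against 8286 ± 300.5 in WT (adjusted p = 0.0143). The CTNNB1 call was lost without GAS41-KO replicate 1 (adjusted p = 0.0609) and without WT replicate 2 (0.0636). The nectin gene PVRL4 was the strong rise, with 52.5 ± 2.80 in GAS41-KO and 19.6 ± 4.23 in WT.

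Genes of apical transport and surface proteolysis mostly fell. Of 26 tested, 16 fell and 3 rose, with 9 strong falls and 1 strong rise (median log2 fold -0.38). AP1M2, the epithelial subunit of the clathrin adaptor AP-1, had 30.9, 38.6 and 34.03 normalized reads in GAS41-KO, against 1196, 1212 and 1135 in WT (34.2-fold lower, adjusted p = 7.26e-15). RAB25, a small GTPase of apical recycling, had 123, 90.1 and 108 in GAS41-KO, against 966, 995 and 1000.0 in WT (9.23-fold lower, adjusted p = 1.16e-13). PRSS8, the membrane protease prostasin, had 99.8, 99.97 and 90.1 in GAS41-KO, against 560.4, 563 and 549 in WT (5.77-fold lower, adjusted p = 3.55e-12). For these genes too the groups did not overlap, as in nearly all strong changes. The protease inhibitor SPINT1, which acts on the protease made by ST14, fell by less than 2-fold, to 1008 ± 67.7 in GAS41-KO, against 1642 ± 58.7 in WT. EZR, the ezrin that links actin to the apical membrane, fell to 33035 ± 711 in GAS41-KO, against 40084 ± 718 in WT (adjusted p = 0.00251). The fusion gene STX3 was not called, with 679.8 ± 36.1 in GAS41-KO and 722 ± 29.6 in WT (adjusted p = 0.368). Keratins moved in both directions. On the keratin list 5 of 12 tested genes rose and 1 fell, 3 and 1 of them strong. Of all 18 tested genes with a numbered KRT symbol 6 rose and 2 fell, 4 and 2 of them strong. KRT8 rose to 36697 ± 189 in GAS41-KO, against 26988 ± 1326 in WT, KRT18 rose to 16706 ± 643 in GAS41-KO, against 12799 ± 475 in WT, and KRT19 was not called, with 9707 ± 82.7 in GAS41-KO and 9845 ± 431 in WT (adjusted p = 0.866). KRT20, a keratin of differentiated gut epithelium, and its neighbour KRT23 were strong rises, with 103 ± 4.21 and 863 ± 14.6 in GAS41-KO, against 16.5 ± 2.46 and 74.7 ± 5.73 in WT. KRT15, a keratin of basal epithelial cells, was the fall of the list, with 80.6 ± 12.6 in GAS41-KO and 187 ± 15.6 in WT (2.32-fold lower, adjusted p = 5.71e-07).

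The letters CAGGTG, or CACCTG on the other strand, are the E-box bound by ZEB and SNAI repressors, and promoter windows of 300 bases (250 before and 50 after the gene start, RefSeq, GRCh38.p14) were searched for them on both strands. The 2 spellings are reverse complements of 1 motif. A window was at hand for 10483 of the tested genes. The E-box letters stood in 112 of 325 windows of strong falls (34.5%), in 116 of 634 windows of strong rises (18.3%) and in 1994 windows of all tested genes (19.02%). On the apical transport list 8 of 16 windows held them, on the tight junction list 5 of 17 (29.4%) and on the list of epithelial transcription and splicing factors 2 of 10. The adherens junction and desmosome list had 3 of 9. Lists described below that mostly rose held them too. They stood in 6 of 20 windows of interferon signalling and RNA sensing factors (30.0%), in 5 of 38 of interferon-stimulated effectors (13.2%) and in 1 of 16 of MHC class I genes. A match is a run of letters and not a site known to be bound. AP1M2 and RAB25 are shown because both are strong falls of the apical list whose windows hold the letters. The 250 bases before the gene start are given from 5′ to 3′ on the strand of the gene, with the E-box letters in capitals. They lie at chr19:10587313-10587562 on the minus strand for AP1M2 and at chr1:156060910-156061159 on the plus strand for RAB25.
AP1M2: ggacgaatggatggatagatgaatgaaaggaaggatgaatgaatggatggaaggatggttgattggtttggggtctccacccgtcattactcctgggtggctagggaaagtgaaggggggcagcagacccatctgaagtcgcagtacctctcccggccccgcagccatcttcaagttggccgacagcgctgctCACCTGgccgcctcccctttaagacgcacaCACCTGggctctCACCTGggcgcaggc
RAB25: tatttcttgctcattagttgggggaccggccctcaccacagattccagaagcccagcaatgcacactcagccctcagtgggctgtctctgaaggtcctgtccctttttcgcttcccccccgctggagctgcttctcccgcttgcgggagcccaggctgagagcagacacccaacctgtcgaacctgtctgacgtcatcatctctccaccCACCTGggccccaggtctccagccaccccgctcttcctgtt
The AP1M2 stretch holds 3 matches, which begin 57, 27 and 15 bases before the gene start, and the RAB25 stretch holds 1, which begins 41 bases before it.

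Among mesenchymal transcription factors 9 of 16 tested genes rose and 4 fell, with 6 strong rises and no strong fall (median log2 fold 0.46). ZEB1, a zinc finger repressor of epithelial genes, had 767, 740.4 and 729 normalized reads in GAS41-KO, against 77.3, 75.5 and 93.9 in WT (9.06-fold higher, adjusted p = 6.88e-11). ETV1, an ETS factor downstream of receptor kinases, had 3572, 3499 and 3378 in GAS41-KO, against 600.5, 576 and 559 in WT (6.02-fold higher, adjusted p = 1.79e-13). FOXC1, a forkhead factor of mesoderm, had 3102, 2989 and 3108 in GAS41-KO, against 883, 756 and 792 in WT (3.78-fold higher, adjusted p = 2.62e-12). The knockout libraries of these 3 genes lay close together and far above the WT libraries. MSX1, a homeobox target of BMP signalling, rose to 3136 ± 90.9 in GAS41-KO, against 1006 ± 28.4 in WT, and MSX2 to 284 ± 23.02 in GAS41-KO, against 121 ± 10.1 in WT. Other factors that drive epithelial to mesenchymal transition went the other way. SNAI1 fell to 115 ± 3.99 in GAS41-KO, against 152 ± 17.9 in WT (adjusted p = 0.0148), and TWIST1 fell to 32.5 ± 1.30 in GAS41-KO, against 55.04 ± 6.64 in WT (adjusted p = 5.45e-04). The SNAI1 call was lost without WT replicate 1 (adjusted p = 0.066) and without WT replicate 2 (0.0633).

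Matrix, integrin and contractile genes mostly rose, with 23 rises and 6 falls among 36 tested and 13 strong rises and 3 strong falls (median log2 fold 0.63). TGM2, a transglutaminase that cross-links matrix proteins, had 3427, 3493 and 3602 normalized reads in GAS41-KO, against 263, 305 and 279.9 in WT (12.4-fold higher, adjusted p = 7.26e-15). SPARC, a collagen-binding matrix protein gene, had 555, 557 and 605 in GAS41-KO, against 75.4, 72.7 and 67.4 in WT (7.97-fold higher, adjusted p = 2.49e-13). ITGB4, the integrin subunit of hemidesmosomes, had 27959, 30300.0 and 30352 in GAS41-KO, against 5265, 5662 and 5562 in WT (5.37-fold higher, adjusted p = 1.49e-13). ITGB4 is an epithelial integrin, and the laminin chain gene LAMA3, whose product it binds, fell to 19.9 ± 3.61 in GAS41-KO, against 107 ± 17.9 in WT (5.35-fold lower, adjusted p = 1.33e-08). The partner chain ITGA6 was not called, with 3313 ± 64.5 in GAS41-KO and 3563 ± 90.95 in WT (adjusted p = 0.224). CTGF, a matricellular target of the Hippo pathway, rose to 207 ± 12.5 in GAS41-KO, against 41.8 ± 5.84 in WT. SERPINE2, a secreted protease inhibitor gene, rose to 5270.2 ± 249.4 in GAS41-KO, against 1496 ± 15.6 in WT. ITGAV rose by less than 2-fold, to 3090.5 ± 217 in GAS41-KO, against 1906 ± 114 in WT, and the fibril-associated collagen gene COL12A1 fell to 961 ± 24.3 in GAS41-KO, against 1907 ± 22.9 in WT.

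**Figure D3:**
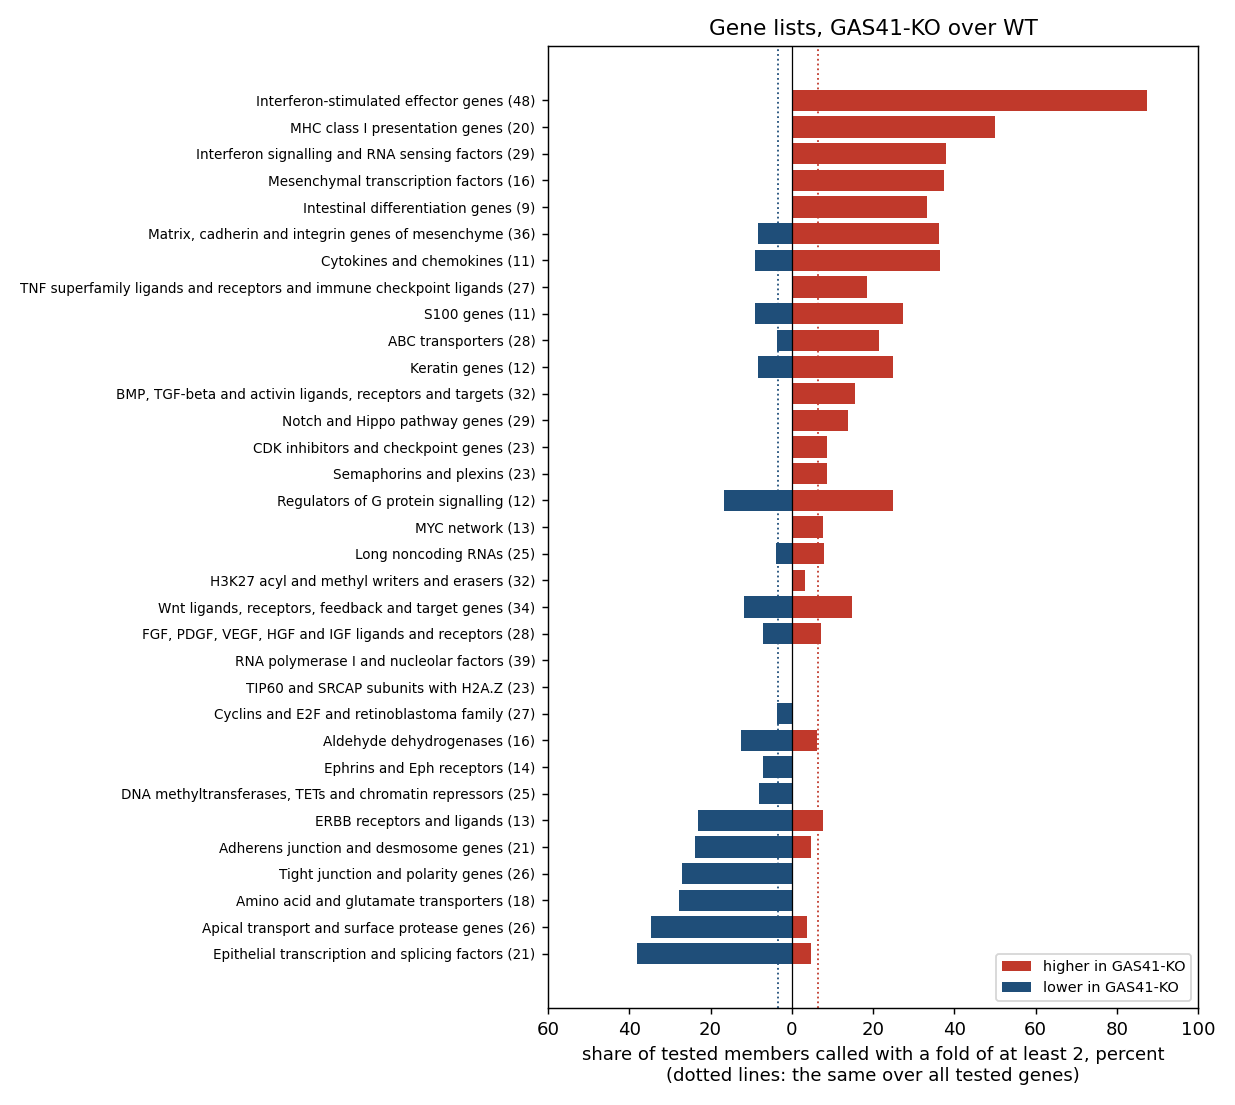
Share of tested members of each list of at least 9 tested genes that were strong rises in GAS41-KO (red bars, to the right) or strong falls (blue bars, to the left), in percent, with the number of tested members in parentheses. Dotted lines give the shares over all tested genes, 6.53% and 3.44%. Interferon-stimulated effectors lie at the top, and epithelial factors, apical transport and amino acid transporters at the bottom.

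Genes of the interferon response rose, from sensors to effectors. The interferon genes IFNL1 and IFNL2 themselves had too few reads to be tested, with 4 and 3 over the GAS41-KO libraries and 0 over the WT libraries. On the list of signalling and RNA sensing factors 22 of 29 tested genes rose and 3 fell, with 11 strong rises and no strong fall (median log2 fold 0.83). DDX58, which encodes the RNA sensor RIG-I, had 1632, 1566 and 1560.5 normalized reads in GAS41-KO, against 216, 196 and 158 in WT (8.34-fold higher, adjusted p = 5.63e-12). IFIH1, which encodes the long double-stranded RNA sensor MDA5, had 1049, 981 and 994 in GAS41-KO, against 169, 159.6 and 161 in WT (6.17-fold higher, adjusted p = 7.14e-14). Each knockout library was above each WT library for both. STAT2 and IRF9, subunits of the ISGF3 complex that carries the interferon signal to the nucleus, averaged 1631 ± 19.2 and 1071 ± 22.02 in GAS41-KO, against 572 ± 25.3 and 159 ± 12.5 in WT. IRF7, the factor that amplifies interferon genes, averaged 501 ± 26.1 in GAS41-KO and 60.1 ± 7.82 in WT, and USP18, a feedback inhibitor of the receptor, 611 ± 26.8 in GAS41-KO and 146 ± 2.68 in WT. The receptor gene IFNAR1 was not called, with 1134 ± 15.96 in GAS41-KO and 1093 ± 27.8 in WT (adjusted p = 0.609), nor was the adaptor gene MAVS, with 5087 ± 399 in GAS41-KO and 4729.9 ± 70.2 in WT (adjusted p = 0.317). TMEM173, which encodes the DNA sensing adaptor STING, fell to 220.2 ± 2.16 in GAS41-KO, against 358 ± 11.2 in WT (adjusted p = 3.4e-06).

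Of 48 tested interferon-stimulated effectors 46 rose and none fell, and 42 were strong rises (median log2 fold 2.03). The 2 that were not called were TRIM22, with 9.97 ± 1.05 in GAS41-KO and 6.32 ± 2.86 in WT (adjusted p = 0.124), and CCL5. TRIM22 was called without WT replicate 2 (adjusted p = 0.0438). CCL5, a T cell attractant, had 14.96, 24.7 and 15.02 normalized reads in GAS41-KO, against 11.5, 14.2 and 12.3 in WT (adjusted p = 0.173). OAS1, which makes the second messenger that activates RNase L, had 766, 759 and 799.8 in GAS41-KO, against 4.77, 1.89 and 0.949 in WT (adjusted p = 1.46e-14). OASL, a catalytically inactive relative, had 653, 643 and 577 in GAS41-KO, against 38.2, 27.4 and 34.2 in WT (18.8-fold higher, adjusted p = 2.26e-13). WT libraries held a few reads of OAS1 and more of OASL, and no knockout library overlapped them. OAS3 had 8841, 8988 and 9181 in GAS41-KO, against 1635, 1616 and 1602 in WT (5.57-fold higher, adjusted p = 1.63e-14). IFITM1, which blocks virus entry, averaged 557 ± 23.03 in GAS41-KO and 15.8 ± 4.61 in WT, and its neighbours IFITM3 and IFITM2 averaged 7000.4 ± 143 and 1519 ± 22.2 in GAS41-KO, against 2422 ± 117 and 742 ± 62.9 in WT. IFITM genes are close copies of each other, and reads could be shared between them. IFI44L had 153 reads over the GAS41-KO libraries and 1 over the WT libraries. TRIM25, a ubiquitin ligase acting on RIG-I, rose by less than 2-fold, to 6705 ± 99.1 in GAS41-KO, against 4225 ± 55.5 in WT.

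Antigen presentation by MHC class I rose with them. Of 20 tested genes 16 rose and 1 fell, with 10 strong rises (median log2 fold 0.98). NLRC5, the transactivator of class I genes, had 379, 452 and 391 normalized reads in GAS41-KO, against 120.3, 108 and 97.7 in WT (3.75-fold higher, adjusted p = 5.11e-10). B2M, the invariant light chain, had 12058, 11030.0 and 11205 in GAS41-KO, against 4496, 4236 and 4614 in WT (2.57-fold higher, adjusted p = 4.94e-10). The immunoproteasome gene PSMB9 had 258, 276 and 271 in GAS41-KO, against 60.1, 63.3 and 55.98 in WT (4.49-fold higher, adjusted p = 9.69e-10). These groups did not overlap either. HLA-B and HLA-C averaged 4240.5 ± 81.1 and 7438 ± 121 in GAS41-KO, against 1896 ± 51.5 and 3291 ± 121 in WT. Class I genes are near copies of each other, so that reads could be shared between them. PSMB10, another immunoproteasome subunit, was the fall, with 307 ± 28.6 in GAS41-KO and 439 ± 19.3 in WT (adjusted p = 0.00102). Some gene families were looked up after the values had been seen. All 6 tested APOBEC3 genes, which deaminate foreign DNA, rose and 4 of them strongly, 4 of 5 tested APOL genes were strong rises, and 7 of 9 HLA class II genes rose, 5 of them strongly.

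The core of the interferon-stimulated response element was searched as GAAANNGAAA, or TTTCNNTTTC on the other strand, in the same promoter windows, and overlapping matches were allowed. It stood in 27 of 38 windows of the effector list (71.1%), in 9 of 16 windows of the MHC class I list (56.2%) and in 4 of 20 windows of the signalling list. The share was 8.36% of windows of strong rises (53 of 634), 2.77% of windows of strong falls (9 of 325) and 2.80% of windows of all tested genes (293). IFI6 and IFIT1 are shown as effectors that rose 59.2-fold and 30.98-fold. The 250 bases before the gene start are given from 5′ to 3′ on the strand of the gene, with matches in capitals, at chr1:27672193-27672442 on the minus strand for IFI6 and chr10:89392373-89392622 on the plus strand for IFIT1 (GRCh38.p14).
IFI6: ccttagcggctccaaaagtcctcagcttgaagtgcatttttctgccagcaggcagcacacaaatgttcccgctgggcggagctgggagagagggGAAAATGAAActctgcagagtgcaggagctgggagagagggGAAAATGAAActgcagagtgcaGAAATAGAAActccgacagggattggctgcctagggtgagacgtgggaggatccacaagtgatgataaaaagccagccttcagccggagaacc
IFIT1: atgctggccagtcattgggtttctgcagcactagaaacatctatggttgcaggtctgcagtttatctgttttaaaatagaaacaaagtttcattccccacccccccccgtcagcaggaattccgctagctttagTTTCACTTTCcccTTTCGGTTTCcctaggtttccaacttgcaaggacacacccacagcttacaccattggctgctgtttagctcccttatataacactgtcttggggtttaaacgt
The IFI6 stretch holds 3 matches, beginning 156, 115 and 93 bases before the gene start, and the IFIT1 stretch holds 2, beginning 116 and 103 bases before it.

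Among ligands, receptors and targets of the TGF-beta superfamily 14 of 32 tested genes rose and 2 fell, with 5 strong rises (median log2 fold 0.16). TGFB2, the ligand gene, had 260.4, 219 and 232 normalized reads in GAS41-KO, against 7.64, 1.89 and 6.64 in WT (44-fold higher, adjusted p = 5.47e-12). ID3 and ID2, direct targets of BMP signalling, averaged 2482 ± 56.6 and 1620.0 ± 108 in GAS41-KO, against 706 ± 22.04 and 793 ± 43.7 in WT. The receptor gene BMPR2 rose to 1196 ± 35.8 in GAS41-KO, against 575 ± 53.2 in WT, and TGFBR2 by less than 2-fold, to 835 ± 58.5 in GAS41-KO, against 592 ± 39.02 in WT. SMAD3, the effector of TGF-beta receptors, fell to 1690.1 ± 37.2 in GAS41-KO, against 2525 ± 50.9 in WT (adjusted p = 1.49e-06), and the feedback inhibitor gene SMAD7 was not called, with 40.5 ± 4.17 in GAS41-KO and 39.9 ± 2.31 in WT (adjusted p = 0.945).

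In the Notch and Hippo pathways 13 of 29 tested genes rose and 4 fell, with 4 strong rises (median log2 fold 0.18). The Notch ligand gene JAG1 had 5613, 5673 and 5533 normalized reads in GAS41-KO, against 630.1, 539 and 635 in WT (9.32-fold higher, adjusted p = 1.63e-14). The second Jagged ligand gene, JAG2, fell to 1006 ± 84 in GAS41-KO, against 1793 ± 94.3 in WT (adjusted p = 3.42e-07). WWTR1, which encodes the Hippo effector TAZ, had 3941, 3766 and 3668 in GAS41-KO, against 1425, 1322 and 1345 in WT (2.78-fold higher, adjusted p = 1.29e-10). Its paralogue YAP1 was not called, with 2650.3 ± 95.1 in GAS41-KO and 2548 ± 95.5 in WT (adjusted p = 0.577). ANKRD1, a target of YAP and TAZ, had 162, 138 and 133 in GAS41-KO and 0.955, 1.89 and 2.85 in WT (adjusted p = 2.13e-11). TEAD1, the DNA-binding partner of both, rose by less than 2-fold, to 5790.0 ± 53.2 in GAS41-KO, against 3418 ± 163 in WT.

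Wnt genes had 18 rises and 6 falls among 34 tested, with 5 strong rises and 4 strong falls (median log2 fold 0.36). The strong falls included 3 ligand genes, WNT10A, WNT7B and WNT3, and the strong rises included the ligand genes WNT9A and WNT11. WNT7B averaged 165 ± 15.8 normalized reads in GAS41-KO and 368 ± 6.13 in WT, and WNT3 averaged 61.1 ± 6.97 in GAS41-KO and 129 ± 10.3 in WT. WNT9A averaged 50.1 ± 6.82 in GAS41-KO and 21.5 ± 2.50 in WT, and WNT11 averaged 20.9 ± 1.76 in GAS41-KO and 5.38 ± 0.551 in WT. AXIN2, a feedback target of beta-catenin, had 949.8, 926 and 993 in GAS41-KO, against 178, 187 and 173 in WT (5.34-fold higher, adjusted p = 4.59e-13). Feedback genes of the list did not all rise. The strong fall that was not a ligand gene was a feedback gene, and others were not called. CCND1, often used as a target gene of the pathway, was not called, with 13678 ± 288 in GAS41-KO and 13159 ± 89.5 in WT (adjusted p = 0.485). The inhibitor gene DKK1 rose by less than 2-fold, to 10757 ± 391 in GAS41-KO, against 6256 ± 124 in WT.

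Of 13 tested genes for ERBB receptors, ligands and receptor inhibitors 9 fell and 3 rose, with 3 strong falls and 1 strong rise (median log2 fold -0.34). The receptor inhibitors on the list were among the falls, and 1 of them was a strong fall. EREG, which encodes the EGF receptor ligand epiregulin, had 5135, 4792 and 4668 normalized reads in GAS41-KO, against 14402, 12503 and 14306 in WT (2.82-fold lower, adjusted p = 8.36e-09). The ligand gene EGF was the strong rise, with 72.8, 78.2 and 90.1 in GAS41-KO and 11.5, 12.3 and 18.98 in WT (5.65-fold higher, adjusted p = 8.42e-08). EGFR fell to 928 ± 35.6 in GAS41-KO, against 1113 ± 37.1 in WT (adjusted p = 0.00297), and ERBB2 rose to 1696 ± 60.8 in GAS41-KO, against 1355 ± 43.4 in WT (adjusted p = 0.00133). Ligands of the same receptor thus moved in opposite directions. Among regulators of G protein signalling, which speed the turn-off of G proteins, 4 of 12 rose and 3 fell (26.0% and 26.6% over all tested genes). Of these 3 were strong rises and 2 strong falls (6.53% and 3.44% over all tested genes). RGS4 averaged 60.4 ± 5.78 in GAS41-KO and 1.90 ± 0.942 in WT (31.8-fold higher), whereas RGS2 fell to 311 ± 18.6 in GAS41-KO, against 908 ± 55.4 in WT (2.92-fold lower).

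Semaphorins and their plexin receptors had 16 rises and 2 falls among 23 tested, most of them under 2-fold, with 2 strong rises (median log2 fold 0.39). SEMA3B had 544, 580.0 and 516 normalized reads in GAS41-KO, against 102, 119.9 and 122 in WT (4.76-fold higher, adjusted p = 1.86e-11). The receptor gene PLXND1 rose to 1096 ± 55.5 in GAS41-KO, against 754 ± 11.3 in WT. In the list of TNF superfamily and checkpoint ligands 8 of 27 rose and 6 fell (26.0% and 26.6% over all tested genes), with 5 strong rises. TNFSF18, the ligand of the T cell receptor GITR, averaged 199.9 ± 10.9 in GAS41-KO and 46.2 ± 3.25 in WT. CD274, which encodes PD-L1, was not called, with 36.2 ± 6.56 in GAS41-KO and 39.9 ± 1.09 in WT (adjusted p = 0.531). Among 11 cytokines and chemokines 6 rose and 2 fell. IL15, which sustains natural killer cells, rose to 109 ± 8.29 in GAS41-KO, against 36.4 ± 5.87 in WT, and CXCL16, a membrane-bound chemokine, fell to 341 ± 13.1 in GAS41-KO, against 763 ± 28.6 in WT.

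Growth factors of other families showed 10 rises and 8 falls among 28 tested (26.0% and 26.6% over all tested genes), with 2 strong changes each way. IGFBP3, which binds insulin-like growth factors, averaged 103 ± 11.4 normalized reads in GAS41-KO and 6.002 ± 6.14 in WT, and PDGFB, a platelet-derived growth factor, averaged 95.3 ± 10.6 in GAS41-KO and 236 ± 5.74 in WT. Of 14 ephrins and Eph receptors 6 rose and 3 fell. EPHA1 fell to 75.1 ± 7.65 in GAS41-KO, against 335 ± 26.3 in WT (4.46-fold lower, adjusted p = 8.96e-11), and EPHA2 rose by less than 2-fold, to 5468 ± 77.9 in GAS41-KO, against 2887 ± 87.8 in WT. Among 11 S100 genes, small calcium-binding proteins, 6 rose and 1 fell, with S100A3 at 89.98 ± 5.85 in GAS41-KO and 29.1 ± 5.42 in WT and S100A10 at 2867 ± 14.2 in GAS41-KO and 1398 ± 30.4 in WT.

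Amino acid transporters fell. Of 18 tested genes 12 fell and 3 rose, with 5 strong falls (median log2 fold -0.48). SLC7A5, the light chain of the large neutral amino acid carrier LAT1, had 5598, 6085 and 6247 normalized reads in GAS41-KO, against 14974, 16179 and 15473 in WT (2.60-fold lower, adjusted p = 2.48e-10). Its heavy chain gene SLC3A2 fell to 2878 ± 35.4 in GAS41-KO, against 5494 ± 237 in WT (adjusted p = 1.22e-07). SLC7A11, the cystine carrier that shares this heavy chain, had 1248, 1158 and 1126 in GAS41-KO, against 2701, 2538 and 2717 in WT (2.25-fold lower, adjusted p = 8.79e-04). SLC3A2, SLC7A5 and SLC7A11 were thus each lower in every knockout library. The glutamine carrier genes SLC1A5 and SLC38A1 fell by less than 2-fold, with 4717 ± 199 and 5170.3 ± 76.6 in GAS41-KO, against 6099.6 ± 136 and 9408 ± 548 in WT. SLC1A1, a glutamate carrier, rose to 378 ± 11.8 in GAS41-KO, against 208 ± 9.48 in WT.

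ABC transporters, which pump lipids and drugs out of cells, had 13 rises and 5 falls among 28 tested, with 6 strong rises and 1 strong fall (median log2 fold 0.28). ABCB1, the multidrug efflux pump, had 477, 460.3 and 481 normalized reads in GAS41-KO, against 108, 108 and 99.6 in WT (4.50-fold higher, adjusted p = 5.99e-12). ABCC2, which exports conjugated compounds, averaged 5126 ± 34.1 in GAS41-KO and 1538 ± 48.95 in WT, and the sterol exporters ABCA1 and ABCG1 averaged 137 ± 7.28 and 47.8 ± 0.831 in GAS41-KO, against 42.7 ± 4.85 and 6.65 ± 1.68 in WT. ABCG2 was not called, with 56.1 ± 6.26 in GAS41-KO and 71.2 ± 6.59 in WT (adjusted p = 0.0774). Of 16 aldehyde dehydrogenases 7 rose and 4 fell (26.0% and 26.6% over all tested genes). ALDH1A3, which makes retinoic acid, had 1916, 1708 and 1919 in GAS41-KO, against 10707, 10891 and 11131 in WT (5.91-fold lower, adjusted p = 3.96e-14). The mitochondrial gene ALDH2 rose to 738 ± 29.7 in GAS41-KO, against 479 ± 14.8 in WT.

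Genes of RNA polymerase I and the nucleolus fell as a near-uniform small shift. Of 39 tested, 34 fell, 1 rose and 4 were not called, and none changed by 2-fold or more (median log2 fold -0.43). The polymerase I factor CD3EAP fell to 157 ± 12.04 normalized reads in GAS41-KO, against 289.8 ± 22.6 in WT, the catalytic subunit gene POLR1A fell to 1664 ± 45.9 in GAS41-KO, against 2382 ± 47.7 in WT, and the nucleolin gene NCL fell to 27651 ± 467 in GAS41-KO, against 38912 ± 1068 in WT. DDX10, an RNA helicase gene, was the rise, with 2475 ± 81.1 in GAS41-KO and 1742 ± 18.9 in WT (adjusted p = 8.87e-06). In the MYC network 5 of 13 rose and 3 fell. MXD4, a repressor that competes with MYC for its partner MAX, had 1287, 1328 and 1265 in GAS41-KO, against 239, 265 and 305 in WT (4.80-fold higher, adjusted p = 1.32e-10), and MXD1 rose by less than 2-fold, to 214 ± 35.2 in GAS41-KO, against 111 ± 17.8 in WT. Cyclins, E2F factors and the retinoblastoma family had 14 falls and 5 rises among 27, and the G1 kinase CDK6 was the strong fall, with 1231 ± 27.2 in GAS41-KO and 2465 ± 159 in WT. Among 23 CDK inhibitors and checkpoint genes 14 rose and 2 fell. CDKN2B, which encodes the inhibitor p15, rose to 225 ± 11.6 in GAS41-KO, against 108 ± 12.04 in WT.

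Writers and erasers of histone H3 lysine 27 marks had 12 rises and 6 falls among 32 tested, with 1 strong change. KAT2B (PCAF) rose to 304 ± 28.2 normalized reads in GAS41-KO, against 128 ± 7.43 in WT, and its paralogue KAT2A (GCN5) fell to 607 ± 31.5 in GAS41-KO, against 1015 ± 49.4 in WT. The methyltransferase EZH2 fell to 1543 ± 11.4 in GAS41-KO, against 1889.8 ± 45.1 in WT (adjusted p = 5.12e-04), and the acetyltransferase EP300 was not called, with 2148 ± 83.3 in GAS41-KO and 1966 ± 73 in WT (adjusted p = 0.0993). Of 25 DNA methylation and chromatin repressor genes 13 fell and 3 rose, with 2 strong falls (median log2 fold -0.30). DNMT3B, a de novo DNA methyltransferase, had 417, 412 and 448 in GAS41-KO, against 875, 877 and 877 in WT (2.06-fold lower, adjusted p = 2.97e-09). TET3, which oxidizes methylated cytosine, had 447, 477 and 482 in GAS41-KO, against 1196, 1123 and 1151 in WT (2.47-fold lower, adjusted p = 3.98e-09). The maintenance enzyme gene DNMT1 was not called, with 5551 ± 131 in GAS41-KO and 5821 ± 131 in WT (adjusted p = 0.423). Among 25 long noncoding RNAs 9 rose and 7 fell (26.0% and 26.6% over all tested genes). MIR31HG averaged 74.4 ± 4.59 in GAS41-KO and 10.1 ± 0.556 in WT, MIR17HG, the host of an oncogenic microRNA cluster, fell to 147 ± 4.39 in GAS41-KO, against 405 ± 9.39 in WT, and MALAT1 was not called, with 9225 ± 803 in GAS41-KO and 11173 ± 309 in WT (adjusted p = 0.252).

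HOX genes, which encode positional identity along the gut and body axis, were read after their values had been seen. Of 10 tested HOXA genes 9 fell and none rose, 4 of them strongly (median log2 fold -0.84). Of 9 tested HOXB genes 6 rose and none fell, 2 of them strongly (median log2 fold 0.58). HOXC genes had 5 falls and 1 rise among 7 tested, and of 2 HOXD genes 1 fell. HOXA3 had 60.9, 40.6 and 38.04 normalized reads in GAS41-KO, against 119, 162 and 159 in WT (3.16-fold lower, adjusted p = 5.36e-07). HOXA5 had 58.9, 53.5 and 71.1 in GAS41-KO, against 138, 152 and 160.3 in WT (2.46-fold lower, adjusted p = 3.92e-07). HOXB3 had 605, 615 and 541 in GAS41-KO, against 206, 194 and 231 in WT (2.79-fold higher, adjusted p = 2.03e-09). The HOXA and HOXB clusters thus lay on opposite sides of 0. HOXA9 was not called, with 157 ± 6.88 in GAS41-KO and 153 ± 4.23 in WT (adjusted p = 0.841), nor was the gut-end gene HOXB13, with 231 ± 4.18 in GAS41-KO and 205 ± 9.86 in WT (adjusted p = 0.114).

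**Figure D4:**
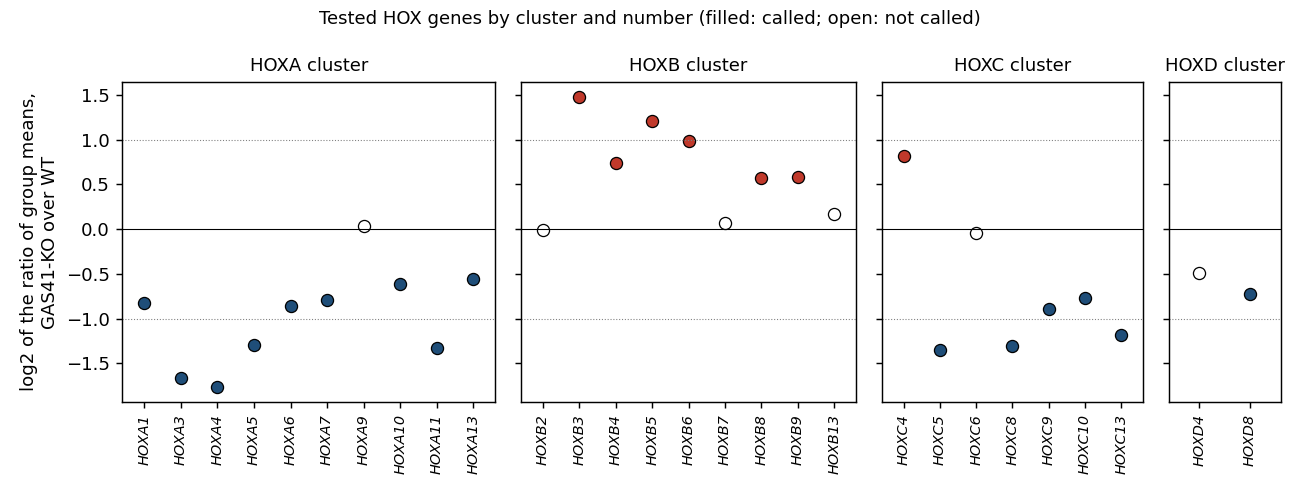
Log2 of the ratio of group means of normalized reads, GAS41-KO over WT, of each tested HOX gene in the order of its number within the HOXA, HOXB, HOXC and HOXD clusters. Filled points were called (red higher, blue lower), open points were not, and dotted lines mark a fold of 2. The called HOXA points lie below 0 and the called HOXB points above it.

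Changed genes were in part neighbours on their chromosomes. With the order of genes taken from RefSeq (GRCh38.p14, positions not printed because the files' build differs), 14241 tested genes could be placed. There were 24 runs of at least 3 neighbouring tested genes that were all strong changes in 1 direction, 20 of rises with 74 genes and 4 of falls with 13 genes, and the longest had 6 genes. Several were known interferon clusters. IFIT2, IFIT3, IFIT1 and IFIT5 stood side by side on chromosome 10, with 465, 391.5, 2559 and 1187 mean normalized reads in GAS41-KO, against 43.3, 35.1, 82.6 and 547 in WT. Others held genes of unrelated roles. A run of 5 on chromosome 6 comprised LINC00326, the transcription cofactor gene EYA4, TARID, LINC01312 and TCF21, a factor of mesenchymal cells. TCF21 had 163, 172 and 153 in GAS41-KO, against 0, 1.89 and 2.85 in WT (adjusted p = 5.47e-12), and TARID, an RNA antisense to it, had 297, 329 and 291 in GAS41-KO, against 8.59, 7.55 and 6.64 in WT (adjusted p = 3.63e-11). Whether reads were counted by strand is not stated, so reads of antisense and overlapping genes cannot be told apart. A run of 6 on chromosome 3 comprised PVRL3, CD96, ZBED2, PLCXD2, PHLDB2 and ABHD10. CD96, a receptor gene of T cells, averaged 70.4 ± 3.38 in GAS41-KO and 3.48 ± 1.46 in WT, and ABHD10, a mitochondrial hydrolase gene, averaged 10067 ± 416 in GAS41-KO and 4506 ± 101 in WT. Among the falls, HOXA3, HOXA4, HOXA-AS3 and HOXA5 formed a run on chromosome 7. The antisense gene HOXA-AS3 had few reads (5.65 ± 4.72 in GAS41-KO and 12.98 ± 1.49 in WT), and its call was lost without GAS41-KO replicate 2 (adjusted p = 0.0626), GAS41-KO replicate 3 (0.107) or WT replicate 3 (0.0559). No chromosome shifted as a whole, since the median log2 fold of genes with at least 50 normalized reads in WT ranged from -0.12 to 0.03 over chromosomes.

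Zinc finger genes named ZNF or ZFP were also read after their values had been seen. Of 419 tested, 107 fell (25.5%, against 26.6% of all tested genes) and 53 rose (12.6%, against 26.0%). There were 25 strong falls (5.97%, against 3.44%) and 7 strong rises (1.67%, against 6.53%), and the median log2 fold was -0.11. Their levels in the rescue lines were of different kinds. ZNF516 had 61.9, 64.3 and 57.1 normalized reads in GAS41-KO, 47.9, 57.9 and 46.3 in mut rescue, 305, 316 and 335 in wt rescue and 465, 443 and 433 in WT. ZNF608 averaged 6.99 in GAS41-KO, 3.34 in mut rescue, 171 in wt rescue and 155 in WT. In both, wt rescue lay far above GAS41-KO. ZFP30 had 21.9, 19.8 and 20.02 in GAS41-KO, 17.9, 14.97 and 32.2 in mut rescue, 16.9, 15.6 and 12.4 in wt rescue and 111, 121 and 119 in WT. ZNF134 had 0 reads over the GAS41-KO libraries, 0 over the mut rescue libraries, 1 over the wt rescue libraries and 111 over the WT libraries, which makes it at least 35.1-fold lower in GAS41-KO than in WT. ZNF675 had 1, 2, 7 and 133 reads in the same order of groups. For ZFP30, ZNF134 and ZNF675, as for ZC4H2, all 3 groups on the knockout background were low and WT alone was high. Because the number of clones is not given, a difference between clones and an effect of GAS41 loss cannot be told apart.

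**Figure D5:**
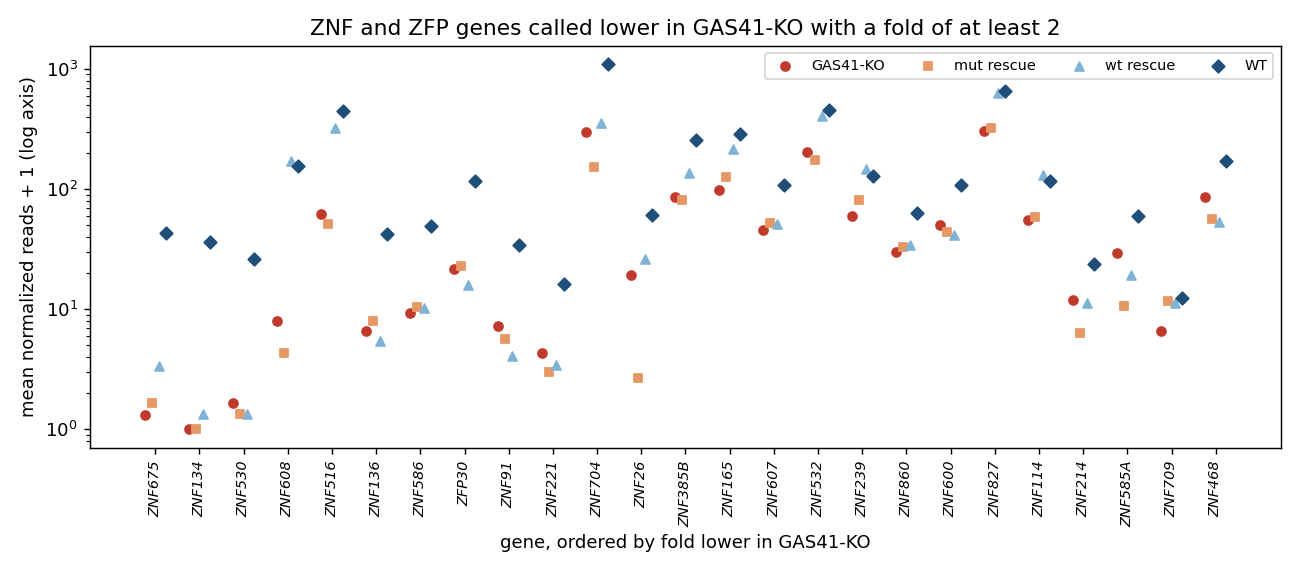
Mean normalized reads plus 1 (log axis) of the 25 ZNF and ZFP genes that fell strongly, in GAS41-KO (red circles), mut rescue (orange squares), wt rescue (light blue triangles) and WT (dark blue diamonds), 3 libraries each, ordered by the fold between WT and GAS41-KO. For ZNF608, ZNF516 and ZNF827 the wt rescue mean is near WT, and for ZNF675, ZNF134, ZNF530 and ZFP30 it is near GAS41-KO.

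The doxorubicin experiment shares no library with GAS41-KO and WT, and its table was normalized separately. In it 14195 genes were tested, each with at least 10 reads in at least 3 of its 6 libraries. Calls were made for 9326 of them (65.7%), with 32.3% higher and 33.4% lower in doxorubicin. Of genes tested in both tables, 786 were strong rises in GAS41-KO, and 454 of these (57.8%) were higher and 130 (16.5%) lower with doxorubicin. Over all 13803 genes tested in both, 30.8% were higher and 34.3% lower. A gene with few reads under DMSO could pass the read minimum only through the doxorubicin libraries. Strong rises of GAS41-KO can be such genes, so the 57.8% is in part set by this filter. No conclusion is drawn from its distance to 30.8%. Of 473 strong falls in GAS41-KO, 172 (36.4%) were higher and 148 (31.3%) lower with doxorubicin. LGALS9, which encodes galectin-9, was high in both settings, with 189 ± 5.71 normalized reads in GAS41-KO and 10.8 ± 4.68 in WT, and 365 ± 40.01 with doxorubicin and 15.2 ± 2.63 with DMSO. PARP10, an ADP-ribosyltransferase gene, averaged 440.3 ± 8.99 in GAS41-KO and 7.58 ± 4.09 in WT, and 333 ± 24.4 with doxorubicin and 17.9 ± 4.61 with DMSO. TGM2, in contrast, was not called with doxorubicin (325 ± 11.5, against 316 ± 31.99 with DMSO, adjusted p = 0.707). The epithelial gene DSC3 was at 1648 ± 173 with doxorubicin and 265 ± 50.9 with DMSO (adjusted p = 8.51e-10), a rise where GAS41-KO showed a fall, and PROM2, a membrane protrusion gene, averaged 12.6 ± 6.55 in GAS41-KO and 131 ± 8.56 in WT, and 1829.6 ± 69 with doxorubicin and 166 ± 17.8 with DMSO.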

How the data were processed

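Poly-A RNA of the GAS41 experiment was sequenced on a BGISEQ-500, per the labels' protocols. Tools named in the submitters' processing notes, without roles, are DESeq2, HTSeq, TopHat2 2.1.0, Bowtie 1.0.1, Trimmomatic 0.36 and CASAVA 1.4, and the builds are hg19 and mm9. The authors deposited log2 values on a variance-stabilized scale. This was read from the values, whose inverse transformation gives whole reads (within 0.01) for 100.0% of them. A step of 1 log2 unit over the table's minimum is 39.1 normalized reads, which compresses log2 changes at low levels.

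Here limma 3.58.1 (R 4.3.3, mean-dependent prior) was fitted to the deposited log2 values of all 12 libraries, with Benjamini-Hochberg adjustment over 14505 genes. A count test was not the main test because the deposited values are on a log2 scale. Voom on the recovered reads was run as an alternative. For folds, group means under 1 normalized read were set to 1 (3 reads over the group). The 6 doxorubicin libraries had a fit of their own. The fit was also run on simulated data with planted changes as a self-test. Same-numbered GAS41-KO and WT libraries did not deviate together (correlations 0.14, 0.15 and -0.04), so that numbers were not used as pairs. Promoter windows and gene order came from RefSeq (GRCh38.p14).

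Genes could be named when they were among the 40 largest changes by fold in each direction (called, groups apart, at least 5 CPM), among the 8 strongest or 4 weaker members of a list, almost without reads in 1 group, in a run of neighbours or a YEATS-domain gene. The lists and this rule were chosen with earlier results of these data known. After their values were seen came HOX, zinc finger, APOBEC3, APOL and HLA class II genes and the count over all numbered KRT genes. Single markers of other cell types, WNT9A and WNT11 were also chosen then. The 26 ChIP and input samples were not analysed here. Some genes of the lists are counted in them and not reported singly here.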

Additional observations from a re-analysis of the deposited data

How the results depend on the processing

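The 7624 calls of GAS41-KO over WT ranged from 6652 to 9736 over the alternatives. The lowest counts came from leaving out 1 library (6652 to 6866), and the highest (9736) came from fitting the 6 GAS41-KO and WT libraries alone. Calls numbered 7788 under quantile normalization, 7621 with voom and 7469 on log2 of normalized reads plus 1. With the replicate number as a block 7890 were called and, among genes with a fold of at least 2, 1447, although same-numbered libraries do not pair. The 1446 strong changes ranged from 1424 to 1453 without 1 library. They were 1744 with no filter on low reads, 957 with at least 50 reads, where fewer genes were tested, and 391 at a fold threshold of 4, which is stricter by construction. Quantile normalization gave 874 higher and 609 lower. Doxorubicin calls (9326) ranged from 8414 to 9526 without 1 library, with 9238 in the replicate block fit, 9305 with voom and 9851 with no filter.

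Of 206 named genes 193 kept their call under each of the 13 alternatives that gave them a value (all 13 for 187 genes, while 19 had no value with at least 50 reads), and no called gene turned its direction. CTNNB1, SNAI1 and HOXA-AS3 lost their calls without 1 library, and TRIM22, COL1A1 and SRCAP gained one. In the fit of the 6 libraries alone, whose spread leaves out the more variable rescue lines, ABCG2, COL1A1, EP300, ITGA6, MALAT1, MAVS, MLLT1, SRCAP and TJP1 were called, with adjusted p from 2.22e-10 to 0.0396. ABCG2 and COL1A1 were also called under quantile normalization (adjusted p = 0.0293 and 0.0476) and SRCAP in the block fit (0.0438). No list of the report changed the sign of its median under another scaling. At this depth folds of genes with a few reads in 1 group rest on those reads. The labels do not say whether replicates are separate cultures.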
